A study of Mus musculus with 50 samples.

Results

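The response of the hypothalamic paraventricular nucleus (PVN) of C57BL/6J mice 4 h after a forced swim was measured on 10 of the 50 two-colour cDNA arrays of the series. These are the 10 arrays whose labels set the stressed C57BL/6J pool at 4 h against the unstressed, basal C57BL/6J pool. The stressed pool was labelled with the dye Cy5 on replicates 1 to 5 and with Cy3 on replicates 6 to 10. Each pool held RNA of 6 animals. The stressed animals were male C57BL/6J mice, 3 to 5 months old and housed singly, that swam once for 5 min and were killed 4 h later, and the basal animals were mice of the same strain, sex and age that did not swim. Pools used beside these were C57BL/6J mice 8 h after the swim, which were set against the same basal C57BL/6J pool, and DBA/2J mice 4 h after the swim, set against basal DBA/2J mice. These were also male mice, 3 to 5 months old and housed singly, and the stressed ones swam once for 5 min. All mice were killed at the same hour of the day, so the 4 h and 8 h animals swam at different hours. All pools carried the genotype of their inbred strain, with no transgene. Tissue was punched from frozen sections of the PVN and its adjacent region, so cells next to the nucleus can be in every pool, and the RNA passed through 2 rounds of amplification before labelling. There was 1 pool per condition. The 10 arrays are repeated hybridisations of the same 2 pools, so that standard errors and p-values cover labelling and hybridisation error alone. They compare 2 pools of RNA, and differences from animal to animal were not measured. In such tissue, fewer cells of a type and less RNA per cell cannot be told apart.

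The PVN starts the hormonal response to stress. Its parvocellular neurons release corticotropin-releasing hormone and vasopressin into the portal blood of the pituitary, which then secretes corticotropin, and corticotropin drives glucocorticoid secretion by the adrenal gland. Glucocorticoids bind the glucocorticoid and mineralocorticoid receptors, which act as transcription factors, and they dampen the axis by feedback on the PVN itself. Genes switched on by neuronal activity respond within minutes and subside, whereas glucocorticoid target genes and later changes in RNA processing, secretion and synaptic function can follow over hours.

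Each array carried 22824 cDNA clones beside 1368 control spots, 1170 of them empty. The arrays had a median scanned intensity between 211 and 295 in Cy5 and between 239 and 491 in Cy3. On 9 arrays 60.4% to 70.2% of the clones, and on replicate 5 38.2%, exceeded the 95th percentile over the empty spots in at least one channel, and such clones are called above the empty spots here. The defining markers of the PVN were measured unevenly. Trh, thyrotropin-releasing hormone, was above the empty spots in both channels on 10 arrays. Avp, vasopressin, was so on 9 arrays, and the clone of Oxt, oxytocin, on 0. Of 11 clones of PVN neuron markers, 6 were above the empty spots in both channels on at least 9 arrays and 4 on none. Crh and Crhr1 were not analysed here. With 10 arrays a difference, the precision of each value is limited by their number.

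At 4 h after the swim the clones that passed the threshold given below were almost all changed in one direction in the C57BL/6J pool. Of the 22824 clones, 62 were lower and 4 were higher in the stressed pool than in the basal pool, together 66 (0.289% of the clones, 0.272% lower and 0.0175% higher). A clone counted as called if it differed by 1.414-fold or more, a log2 ratio of 0.5, in either direction and if its Benjamini-Hochberg adjusted p, from limma over all clones, was under 0.05. All log2 ratios are stressed over basal by the labelled dyes. In the study's own folds the sign is the other way round, here as well as in DBA/2J after 4 h and in C57BL/6J after 8 h. Its real-time PCR of Gnai2 in DBA/2J, not analysed here, runs in the direction of those folds. In C57BL/6J the same PCR gave an increase that was not significant, and the Gnai2 clone given further below was higher there by the labelled dyes. The array files do not settle which direction holds. With the sign turned 62 clones would be higher and 4 lower, and every log2 ratio and every difference between responses given here would change its sign too. Among the 62 clones the log2 ratio lay between -1.22 and -0.50 with a median of -0.69, and among the 4 it lay between 0.52 and 0.68. The largest change was 2.335-fold, the median 1.605-fold, and 5 clones changed by 2-fold or more. In all, 52 of the 66 clones carried a gene symbol, and these were 49 genes. Across all 22824 clones the median log2 ratio was 0.0021, and the wider sets of clones were less one-sided. At an unadjusted limma p under 0.05, 1439 clones were lower and 1363 higher, and by the fold alone 366 were lower and 205 higher.

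**Figure D1:**
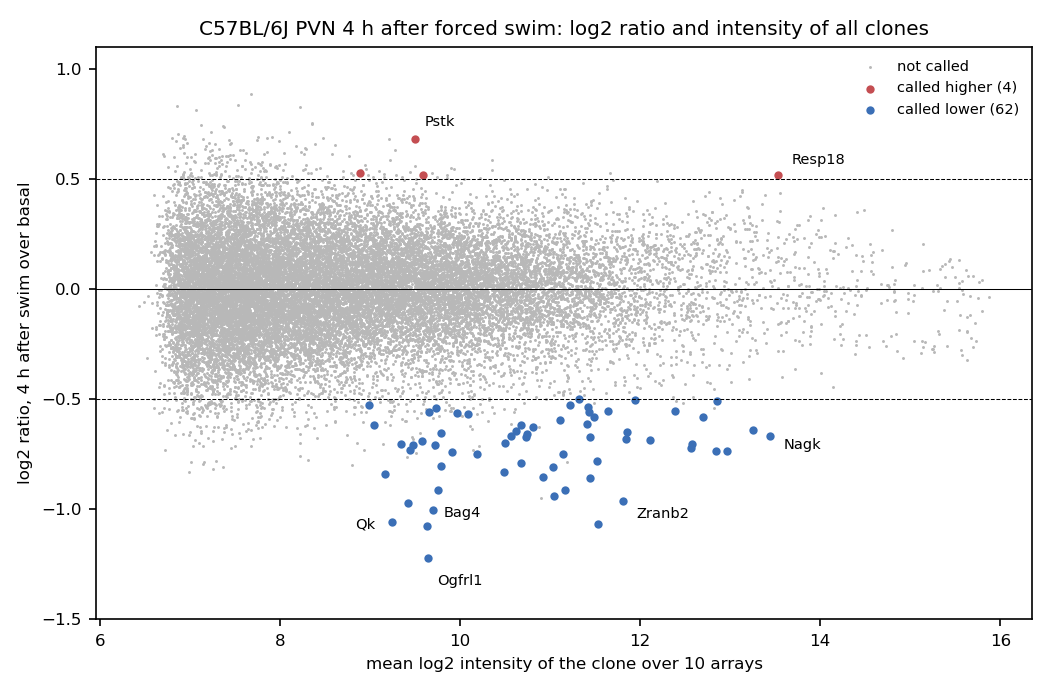
The log2 ratio of each of the 22824 clones (stressed over basal pool, mean of 10 arrays) is plotted against its mean log2 intensity, with the 4 clones called higher and the 62 called lower in colour and dashed lines at a log2 ratio of 0.5 either way. The called clones lie at the brighter end, and far more of them lie below the lower line than above the upper one.

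The lowest clones with a symbol encoded proteins of different kinds. Ogfrl1, a paralogue of the opioid growth factor receptor, stood lowest. Its log2 ratio was -1.92 on the lowest array, -1.24 in the median and -0.20 on the highest, and the mean was -1.22 (standard error 0.17, adjusted p = 0.014). Arfgef1 encodes an exchange factor that activates ADP-ribosylation factors in traffic from the Golgi, and 2 of its clones were called. The first had array values of -1.27, -1.13 and -0.73 (lowest, median, highest) with a mean of -1.07 (standard error 0.09, adjusted p = 0.00141). The second had array values of -1.21, -0.90 and -0.74 with a mean of -0.91 (standard error 0.09, adjusted p = 0.00245). Neither clone came near 0 on any of the 10 arrays, and the ranges of the 2 clones almost coincided. Zranb2, a zinc finger protein that takes part in splicing, lay between -1.25 and -0.74 on the arrays with a median of -0.98, and its mean was -0.96 (standard error 0.08, adjusted p = 0.00141).

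Qk, an RNA-binding protein that directs splicing and RNA transport in myelinating oligodendrocytes, spread more widely. Its array values were -1.86, -1.12 and -0.02 (lowest, median, highest), with a mean of -1.06 (standard error 0.13, adjusted p = 0.0065). The array nearest to 0 was one with the stressed pool in Cy3. Bag4, a co-chaperone that holds death receptors silent, had a mean of -1.01 (standard error 0.16, adjusted p = 0.0253) over array values of -1.66, -1.06 and -0.16. Ackr2, a receptor that scavenges chemokines, had a mean of -0.94 (standard error 0.11, adjusted p = 0.0049) over array values of -1.34, -0.94 and -0.48. All 10 arrays were below 0 for both genes. Chm, the escort protein that presents Rab GTPases for prenylation, averaged -0.92, the zinc finger protein Zfp467 -0.86, the membrane-anchored ubiquitin-fold protein Ubl3 -0.85 and Hook3, an adaptor between dynein and its cargo, -0.83.

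Both subunits of a phospholipid flippase were among the lower genes. Atp11a, its catalytic P4-ATPase, had array values of -1.26, -0.99 and -0.15 and a mean of -0.84 (standard error 0.14, adjusted p = 0.0339). Tmem30a, the subunit that such ATPases need to leave the endoplasmic reticulum, had array values of -1.41, -0.76 and -0.32 and a mean of -0.80 (standard error 0.11, adjusted p = 0.014). No array was above 0 for either gene. Yaf2, a partner of Polycomb repressive complexes, averaged -0.78, Dpysl2, a tubulin-binding protein of growing axons, -0.72, and Nagk, the kinase of N-acetylglucosamine, -0.67. These last 3 clones were among the most tightly measured, and the array values of Dpysl2 lay between -0.92 and -0.57.

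Further genes with neural functions were lower by less. Cdh8, a cadherin of synaptic contacts, averaged -0.70, Rtn4, the precursor of the neurite growth inhibitor Nogo, -0.70, Gpm6b, a proteolipid of neurons and oligodendrocytes, -0.65, Sema6d, a semaphorin, -0.56, and Ptprz1, a receptor phosphatase of glia, -0.53. Ptch1, the receptor of hedgehog proteins, averaged -0.51. Nampt, which makes the nicotinamide mononucleotide used for NAD synthesis, averaged -0.56, Pold1, the catalytic subunit of DNA polymerase delta, -0.66, and Selenot, a selenoprotein of the endoplasmic reticulum, -0.74. The 2 called clones of H3f3a, a gene of histone H3.3, averaged -0.68 and -0.55. The adjusted p of these clones lay between 0.014 and 0.0393, and each was below 0 on 10 of 10 arrays except Cdh8, which was so on 9 of 10.

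The 3 named genes called higher by the labelled dyes were unlike one another. Pstk, the kinase that prepares transfer RNA for selenocysteine synthesis, had array values of 0.16, 0.65 and 1.06 (lowest, median, highest) with a mean of 0.68 (standard error 0.10, adjusted p = 0.0166). Resp18, which resides in the granules of neuroendocrine cells, had array values of 0.34, 0.52 and 0.67 with a mean of 0.52 (standard error 0.08, adjusted p = 0.0225). Both genes were above 0 on all arrays, with a narrower range for Resp18. Fmc1, an assembly factor of mitochondrial ATP synthase, averaged 0.52 (standard error 0.09, adjusted p = 0.0388), but its lowest array lay at 0.0005. Of the 52 called clones with a symbol, it was called in the fewest alternative settings, 4 of 21.

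**Figure D2:**
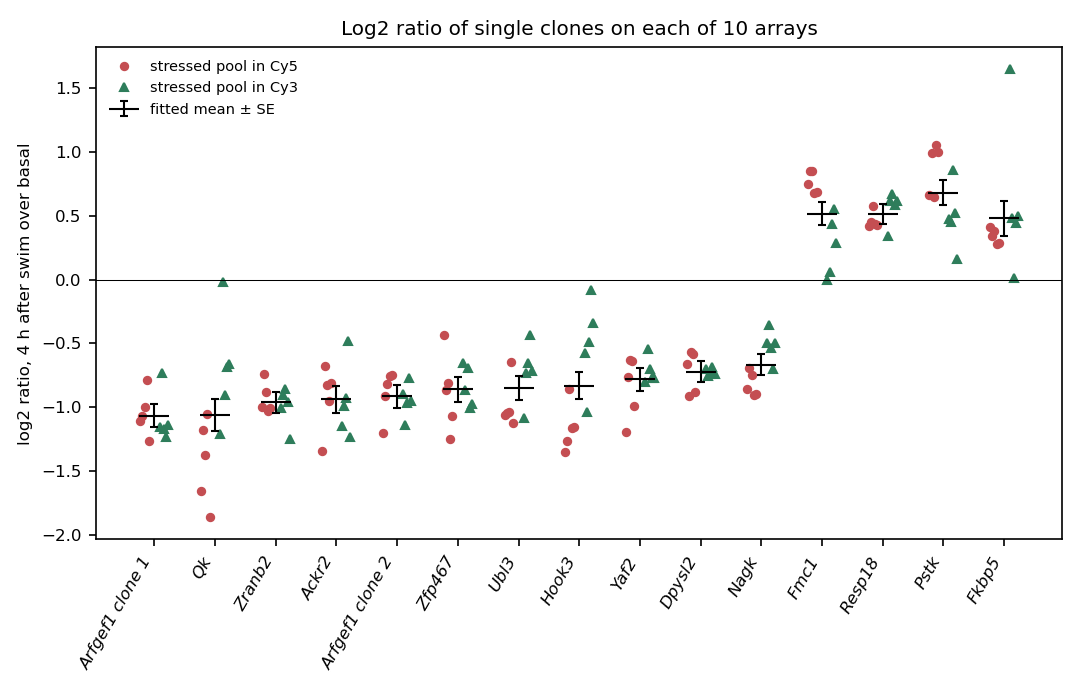
The log2 ratio (stressed over basal pool) of 15 clones is shown on each of the 10 arrays, with stressed-in-Cy5 arrays as circles, stressed-in-Cy3 arrays as triangles, and the fitted mean with its standard error as bars. Both Arfgef1 clones and Zranb2 stay below -0.7 on every array, whereas Qk reaches -0.02, and 1 array of Fkbp5, which was not called, lies at 1.65.

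The 66 clones were called on these same 10 arrays, so agreement in sign among arrays and orientations largely follows from the choice. Of the 66 called clones, 63 had the same sign on all 10 arrays and 3 on 9 of 10. Over all clones 441 did so on all 10 arrays (1.93%), 250 below 0 and 191 above. The sign agreed between both dye orientations for all 66. The size did not agree as well, since the median of the 62 lower clones was -0.83 where the stressed pool was in Cy5 and -0.58 where it was in Cy3, and 47 of the 62 were further from 0 in Cy5. With either orientation alone limma called 0 clones, with 2640 (stressed in Cy5) and 2548 (stressed in Cy3) at an unadjusted p under 0.05. Across all clones the mean ratios of the 2 orientations had a correlation of -0.02, and across the 2283 brightest 0.24, a description over clones that share arrays and dyes. All 66 called clones were above the median intensity, with a median percentile of 88.3, and 46 were above the empty spots in both channels on all 10 arrays (25.2% of all clones). In the authors' processed values, all 66 kept their sign.

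The count depended on single arrays. Without 1 array the number of called clones was between 16 (without replicate 8) and 42 (without replicate 5), with 32, 38, 20, 28, 36, 25, 18 and 17 without replicates 1, 2, 3, 4, 6, 7, 9 and 10. For the 52 called clones with a symbol 21 settings were tabulated, these 10 and 11 changes of processing, and 11 of the 52 were called in all 21. The 21 leave out the runs with either dye orientation alone and with the orientations averaged, in each of which 0 of the 52 were called. They were the clones of Ackr2, Dpysl2, Hook3, Nagk, Qk, Ubl3, Yaf2, Zfp467 and Zranb2 and both clones of Arfgef1. The 14 called clones without a symbol were not tabulated in this way. On the other side, 20 of the 52 clones were called in fewer than 12 settings, among them Atp11a, Cdh8, Ptch1, Ptprz1, Serbp1, Resp18 and Fmc1. The values just beyond the threshold were those of R3hdm2 at -0.70 (adjusted p = 0.0504), Dscc1 at -0.51 and Map7d2 at -0.51 (adjusted p = 0.0543 each) and Nr4a1 at 0.74 (adjusted p = 0.0565).

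Many genes had more than 1 clone on the array, and these did not always agree. Of the 49 called genes 16 had 1 clone, and 3, Arfgef1, Atp6ap2 and H3f3a, had 2 called clones. Of all 22824 clones, 11312 were below 0, and 1439 were below and 1363 above 0 at an unadjusted p under 0.05. The 46 genes called lower had 55 further clones, of which 29 were below 0, and 8 were below and 1 was above 0 at an unadjusted p under 0.05. Their median log2 ratio was -0.03, against 0.0021 over all clones. Of the 27 that were brighter than the median clone, 15 were below 0.

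For some genes a further clone lay near the called one. The further clone of Ubl3 averaged -0.78 (standard error 0.19, adjusted p = 0.127) and was below 0 on 9 arrays. That of Nktr, a cyclophilin with splicing-factor domains, averaged -0.56 (standard error 0.14, adjusted p = 0.14). That of Wsb1, a substrate receptor of ubiquitin ligases, stood further off, at -0.47 (standard error 0.11, adjusted p = 0.117). Its array values were -1.55, -0.21 and 0.14 (lowest, median, highest), and 8 arrays were below 0. For Tmem30a a further clone averaged -0.95 (standard error 0.18, adjusted p = 0.0631), with 1 array, replicate 1, at -2.79. Other clones of Tmem30a averaged -0.21 (standard error 0.12), brighter than 83.5% of all clones, and -0.05 (standard error 0.25). None of these further clones passed the threshold. For other genes the further clones stood near 0. Yaf2 had 1 at 0.08 (standard error 0.08) that was brighter than 99.6% of all clones, Ogfrl1 1 at 0.08 (standard error 0.12), Bag4 2 at 0.01 and 0.21, and H3f3a a further one at 0.10 (standard error 0.09). The 6 further clones of Qk lay between -0.46 and 0.26. Among other genes called in every tabulated setting, Ackr2 had 1 at -0.19, Arfgef1 1 at -0.22, Nagk 1 at -0.03 and Zfp467 1 at 0.37. All of these were dimmer than the median clone. Further clones of Hook3 stood at 0.03, -0.12 and -0.19, and those of Dpysl2 at 0.02 and 0.14. Selenot had 2 further clones at 0.44 and 0.38, on the other side of 0 from its called clone. Which transcript or part of a transcript a clone held was not analysed here.

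**Figure D3:**
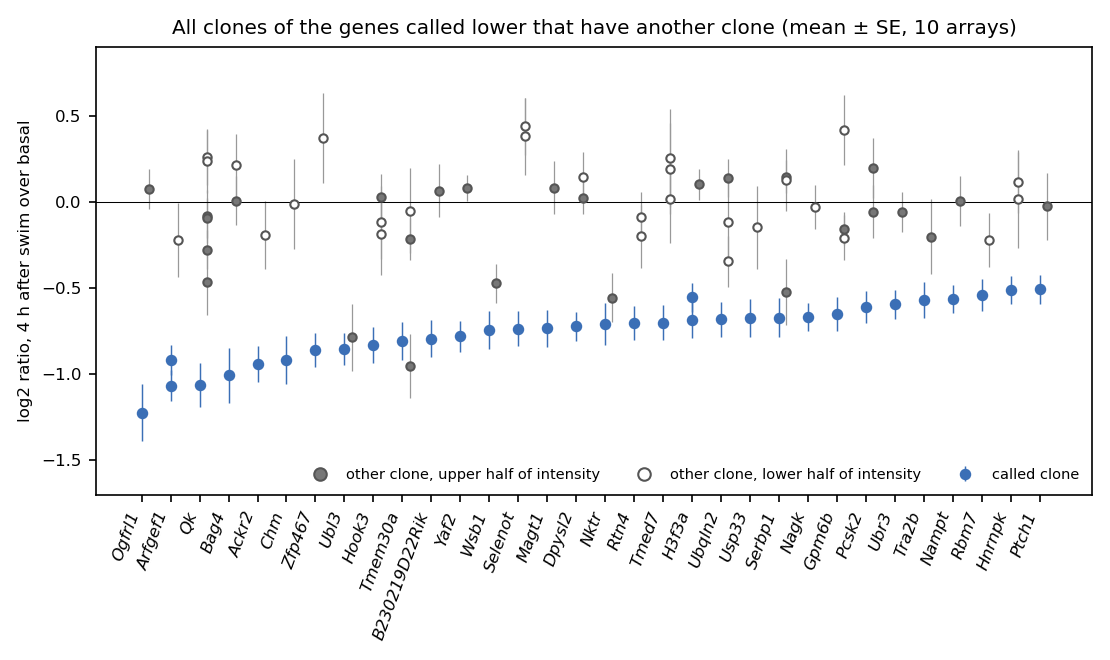
For each gene called lower that has another clone, the log2 ratio (stressed over basal pool, mean with standard error, 10 arrays) is shown for the called clones in blue and for the further clones in grey, filled where these are brighter than the median clone. A further clone each of Ubl3, Tmem30a and Nktr lies near the called one, and most others, among them other clones of Tmem30a, lie closer to the zero line.

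Genes were then taken by function. Of 24 lists by function with 2713 clones, 26 of the called clones belonged to at least one, 25 of them lower and 1 higher. Lists hold only clones with a symbol, and of all 9970 of these, 49 were called lower and 3 higher. Of 254 clones of RNA splicing and RNA binding genes, 6 were called lower and 0 higher. Lower calls made up 2.36%, against 0.272% of all clones and 0.49% of those with a symbol. At an unadjusted p under 0.05, 30 of the 254 were lower and 9 higher, against 1439 and 1363 of all 22824 clones. The 6 were Zranb2, Qk, Nktr, Tra2b, an exon-selecting splicing factor (-0.57), Rbm7, of the nuclear exosome targeting complex (-0.54), and Hnrnpk, a poly(C)-binding protein (-0.51). The median of the list was -0.05 ± 0.02 (SD, n = 10 arrays) and lay below 0 on 10 of 10 arrays. That median is small beside the values of the called members.

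In membrane traffic, 5 of 328 clones were called lower (1.52%, against 0.272% of all clones and 0.49% of those with a symbol), 2 of Arfgef1 and 1 each of Chm, Rtn4 and Tmed7, a cargo receptor of the p24 family (-0.70). The median of that list was -0.003 ± 0.03 (SD, n = 10 arrays). In the ubiquitin and proteasome system 4 of 280 clones were called lower (1.43%), Ubl3, Wsb1 (-0.74), Ubqln2, a shuttle that carries ubiquitinated proteins to the proteasome (-0.68), and Usp33, a deubiquitinating enzyme (-0.67), with a median of -0.03 ± 0.03. Both clones of Atp6ap2, the prorenin receptor and accessory subunit of the vacuolar proton pump, were called at -0.64 and -0.58. They were the only calls among 29 vacuolar ATPase clones (6.90%), whose median was 0.08 ± 0.09.

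Of 28 clones of secretory granule genes, 1 was called lower (3.57%, against 0.272% of all clones and 0.49% of those with a symbol). One more was called higher, against 0.0175% of all clones. Pcsk2, the convertase that cleaves prohormones in dense-core granules, had array values of -0.82, -0.66 and -0.28 and a mean of -0.61 (standard error 0.09, adjusted p = 0.021). The other was Resp18, given above as higher. Beside them Cadps, which primes dense-core vesicles for release, averaged -0.56 (standard error 0.11, adjusted p = 0.0771), Pcsk1n, an inhibitor of prohormone convertase, 0.53 (adjusted p = 0.264), and Cpe, carboxypeptidase E, -0.23 (adjusted p = 0.277), none of them called. The 2 further clones of Pcsk2 averaged -0.06 and 0.20.

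Genes of the hypothalamus-pituitary-adrenal axis gave no call. Of the 22 genes listed, 12 had a clone, and limma called 0 of their 14 clones, as did the t-test of the methods with adjusted p. Over all clones limma called 0.289%, so that 0 calls in so short a list say little about the axis. The median intensity percentile of the 14 was 48.1, and 2 were above the empty spots on all 10 arrays. At an unadjusted p under 0.05, 1 of the 14 was lower and 1 higher, against 1439 and 1363 of all 22824 clones. Avp had array values of -0.83, 0.37 and 1.14 with a mean of 0.29 (standard error 0.18, adjusted p = 0.584). Oxt had array values of -1.34, -0.20 and 1.06 with a mean of -0.21 (standard error 0.22, adjusted p = 0.78). The arrays lay on both sides of 0 for both hormones, so that no change was detectable at this precision. The glucocorticoid receptor Nr3c1 averaged -0.12 ± 0.10 (mean ± standard error, adjusted p = 0.704) and the mineralocorticoid receptor Nr3c2 -0.27 ± 0.16 (adjusted p = 0.555). Hsd11b1, which regenerates active glucocorticoid, averaged -0.42 (standard error 0.13, adjusted p = 0.2), Pomc, the corticotropin precursor, -0.20, and Crhr2, a receptor of urocortins, 0.35.

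Fkbp5, a co-chaperone that restrains the glucocorticoid receptor and is itself induced by glucocorticoids, was above 0 on all 10 arrays. Its array values were 0.01, 0.40 and 1.65 (lowest, median, highest), and its mean was 0.48 (standard error 0.14, adjusted p = 0.175), or 0.35 without replicate 6, the array at 1.65. Among all 42 clones of 26 glucocorticoid target genes limma called 0, the adjusted t-test of the methods called 1, and at an unadjusted p under 0.05, 4 were lower and 3 higher. Of all 22824 clones limma called 0.289%, and at an unadjusted p under 0.05, 1439 were lower and 1363 higher. The 2 clones of Sesn1, a stress-inducible regulator of growth signalling, averaged -0.62 and -0.60 (adjusted p = 0.0945 and 0.0725), Glul, glutamine synthetase, 0.34, Klf9, a transcription factor, -0.47 and Dusp1, a MAP kinase phosphatase, -0.36. The median of the list was -0.01 ± 0.06 (SD, n = 10 arrays), and the clones lay on both sides of it.

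Immediate early genes also gave 0 calls in 29 clones by limma and by the adjusted t-test, with 2 lower and 2 higher at an unadjusted p under 0.05. Over all clones limma called 0.289%, so that 0 calls in this list or the next ones say little. Nr4a1, a nuclear receptor induced by neuronal activity, was the highest, with array values of 0.16, 0.52 and 1.78 and a mean of 0.74 (standard error 0.14, adjusted p = 0.0565). All 10 arrays were above 0. The 2 clones of Egr1, a transcription factor of the same class of early genes, averaged -0.55 and 0.24 (adjusted p = 0.317 and 0.529), and Ier3 averaged -0.48 (adjusted p = 0.0695). Among 21 clones of neuropeptides limma and the adjusted t-test called 0, and at an unadjusted p under 0.05, 1 was lower and 1 higher, Gal, galanin, at -0.50 (adjusted p = 0.366) and Trh at 0.33 (adjusted p = 0.201). The 25 clones of circadian clock genes and 53 of neurotransmitter receptors gave 0 calls by either test. The 99 clones with the symbol of an ion channel gave 0 by limma and 1 by the adjusted t-test. A called clone with no symbol here, and so in no list, bears the array's name of a sequence moderately similar to the alpha-1A subunit of the P/Q-type calcium channel. It had array values of -1.61, -0.71 and -0.16 and a mean of -0.75 (standard error 0.11, adjusted p = 0.0189). At an unadjusted p under 0.05, 0 clock clones were lower and 1 higher, 5 receptor clones were lower and 6 higher, and 4 channel clones were lower and 6 higher. Of all 22824 clones, 1439 were lower and 1363 higher by this measure.

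The medians of 4 lists of the translation and energy machinery lay above 0, although no clone of them was called. Below 0 lay 24 of 109 clones of cytosolic ribosomal proteins, 27 of 86 of mitochondrial ribosomal proteins, 35 of 108 of oxidative phosphorylation and 11 of 31 of glycolysis. Of all 22824 clones, 11312 lay below 0. Of 109 clones of cytosolic ribosomal proteins 0 were called by limma or the adjusted t-test, but at an unadjusted p under 0.05, 38 were higher and 2 lower, against 1363 and 1439 of all clones. The list had a median of 0.15 ± 0.04 (SD, n = 10 arrays) and was above 0 on every array, at 0.11 to 0.23. Rps14, of the small subunit, averaged 0.48 (adjusted p = 0.0873), and Rpl14 and Rpl7a, of the large subunit, 0.45 each (adjusted p = 0.0645 each). Of Rpl15, also of the large subunit, 3 clones averaged 0.43, 0.37 and -0.39, so that clones of 1 gene stood on both sides of 0. Of 108 oxidative phosphorylation clones 0 were called by either test, 25 were higher and 5 lower when p was not adjusted (under 0.05), and the list had a median of 0.12 ± 0.06, and the median of 86 mitochondrial ribosomal clones was 0.08 ± 0.05. That of 31 glycolysis clones was 0.07 ± 0.06. All 4 medians were above 0 on each of the 10 arrays.

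Markers of cell types and regions were set beside these lists because the punched tissue can hold other cells. The median over 41 clones of neuron markers was 0.10 ± 0.05 (SD, n = 10 arrays), and that of 46 astrocyte clones was 0.11 ± 0.06. For neurons the medians were above 0 on all 10 arrays, at 0.003 to 0.14, as they were for the translation and energy lists. Of 51 clones of oligodendrocyte and myelin markers 1, Qk, was called lower (1.96%, against 0.272% of all clones and 0.49% of those with a symbol). At an unadjusted p under 0.05, 11 of the 51 were lower and 5 higher, against 1439 and 1363 of all 22824 clones. The array medians lay between -0.21 and 0.18 around a median of -0.04. The median of 11 PVN neuron clones was -0.08 ± 0.21 and that of 7 blood cell clones 0.19 ± 0.15. Those of 17 microglia, 32 endothelial and 22 thalamus clones were 0.03, 0.03 and -0.02. Of the marker clones, 24 of 41 for neurons, 29 of 46 for astrocytes, 20 of 51 for oligodendrocytes and 5 of 17 for microglia were above the empty spots in both channels on at least 9 arrays. The part of these cells in the called changes was not tested.

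**Figure D4:**
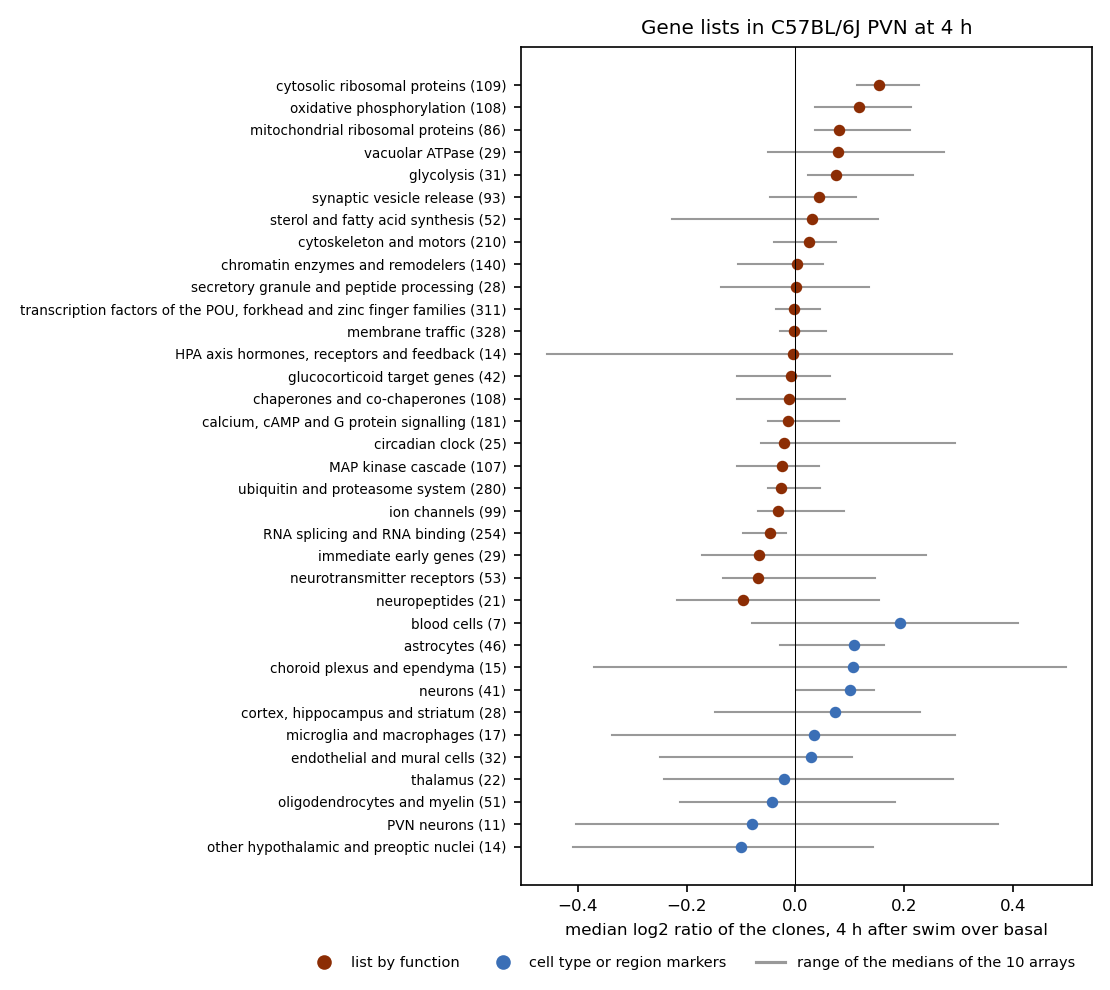
The median log2 ratio (stressed over basal pool) is shown for each list of genes, with functions in red and cell type or region markers in blue, and the grey lines give the range of the medians of the 10 arrays (clones per list in parentheses). Ribosomal and energy lists and the neuron markers lie above 0 on all arrays, RNA splicing and RNA binding below 0 on all arrays, and the other ranges span 0.

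The changes of the called genes were read against the later time and the other strain. The 62 clones that were lower in C57BL/6J at 4 h had a median log2 ratio of -0.05 (range -0.56 to 0.52) in C57BL/6J at 8 h, where 37 were below 0. In DBA/2J at 4 h their median was 0.14 (range -0.49 to 0.65), and 19 were below 0 (30.6%, against 49.5% of all clones). Limma and the adjusted t-test of the methods called 0 of the 62 lower again at 8 h, where 0.00438% of all clones were called lower, and 0 in DBA/2J, where 0.14% were. At an unadjusted p under 0.05, 6 of the 62 were lower and 3 higher at 8 h, and 1 was lower and 15 higher in DBA/2J. Of all clones, 4.24% were lower and 5.04% higher by this measure at 8 h, and 5.42% were lower and 5.25% higher in DBA/2J. None of the 4 clones that were higher at 4 h was called at 8 h, where 0.0789% of all clones were called higher and 0.0832% in either direction, or in DBA/2J, where 0.0131% were called higher and 0.153% in either direction. The 8 h arrays share the basal pool with the 4 h arrays, and the DBA/2J arrays share no pool with them.

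**Figure D5:**
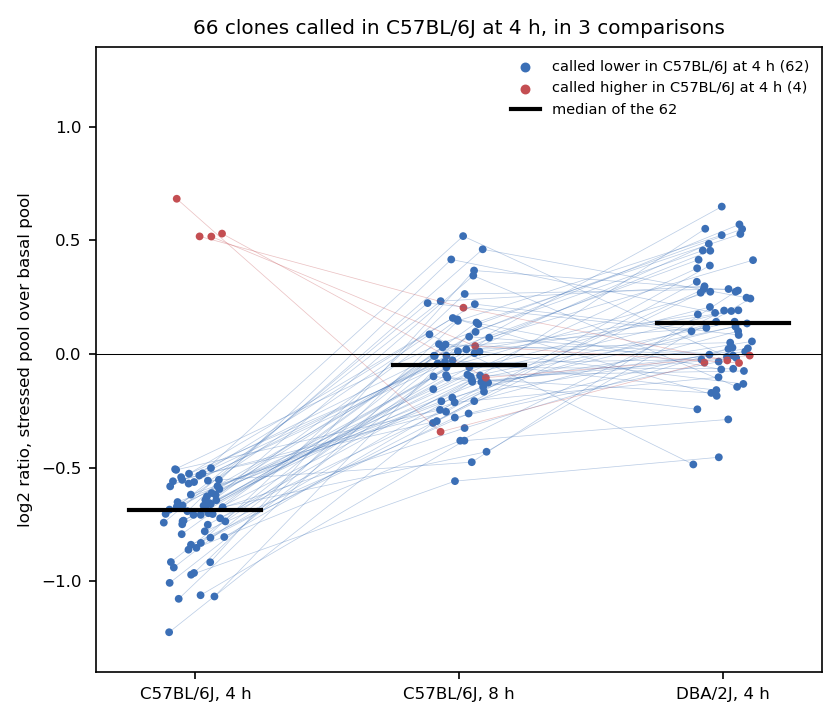
The log2 ratio (stressed pool over its basal pool) of the 66 clones called in C57BL/6J at 4 h is shown for each strain and time, C57BL/6J first at 4 h, then at 8 h, and then DBA/2J (4 h), with a line for each clone and a bar at the median of the 62 clones called lower. The bar lies at -0.69, -0.05 and 0.14.

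The differences between these responses were tested directly. Since the C57BL/6J arrays at 4 h chose the 62 clones, the counts below describe them and are not independent of that choice. Of all clones 535 (2.34%) passed the test of the difference from DBA/2J, and the response at 4 h was lower than in DBA/2J for 264 (1.16%) and higher for 271 (1.19%), while 47 of the 62 clones were among the 264. The difference from 8 h passed for 113 clones (0.495%), of which 87 were lower (0.381%) and 26 higher (0.114%), and 24 of the 62 clones were among the 87. With each array centred on its median in place of loess, 223 of all clones were lower and 351 higher than in DBA/2J, and 53 were lower and 43 higher than at 8 h. Leaving out 1 replicate number from both comparisons gave 310 to 388 clones for the difference from DBA/2J and 46 to 61 for that from 8 h. Arrays of different comparisons were quantified on different days, so that the day and the comparison cannot be told apart.

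Single genes showed the pattern with different strength. None of the 62 lower clones had a limma adjusted p under 0.05 in DBA/2J alone or at 8 h alone, in either direction. The first Arfgef1 clone stood at -1.07 in C57BL/6J at 4 h, 0.13 at 8 h and 0.55 in DBA/2J at 4 h, with a difference from DBA/2J of -1.62 ± 0.17 (estimate ± standard error, adjusted p = 3.43e-05) and from 8 h of -1.20 ± 0.14 (adjusted p = 0.000216). Zranb2 stood at -0.96, 0.15 and 0.52, with a difference from DBA/2J of -1.49 ± 0.16 (adjusted p = 5.9e-05) and from 8 h of -1.11 ± 0.12 (adjusted p = 0.000195). The 2 other responses of these 2 clones lay on the other side of 0, while the second called clone of Arfgef1 stood at -0.91, -0.01 and 0.41. Pcsk2 stood at -0.61, 0.10 and 0.57, with a difference of -1.18 from DBA/2J (standard error 0.16, adjusted p = 0.000401). Nampt stood at -0.56, 0.01 and 0.65, and its difference from DBA/2J was -1.21 (adjusted p = 0.000544, standard error 0.17). Gpm6b and Cdh8 stood at 0.55 and 0.53 in DBA/2J. Rtn4 was an exception, since it stood at -0.49 in DBA/2J and its difference was -0.22 (standard error 0.20, adjusted p = 0.7). Qk and Bag4 also stood below 0 in DBA/2J, at -0.29 and -0.24, and their differences of -0.77 and -0.76 did not pass (adjusted p = 0.0652 and 0.112).

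At 8 h, Ptprz1 stood at 0.52 and Pgap1, an enzyme that remodels lipid anchors of membrane proteins, at 0.46. Both differed from their 4 h values of -0.53 and -0.55 (adjusted p = 0.00353 and 0.00393). In the limma test at 8 h alone neither passed (adjusted p = 0.278 and 0.335). For Sema6d the difference between 4 h and 8 h was -0.08 (standard error 0.22, adjusted p = 0.94), with -0.56 at 4 h and -0.48 at 8 h. Pstk, higher at 4 h, stood at -0.34 at 8 h, a difference of 1.02 (standard error 0.21, adjusted p = 0.0287). The clones of Dpysl2 differed among themselves here as well. Its called clone stood at -0.72 at 4 h and -0.17 at 8 h, and a second, bright clone stood at 0.02 at 4 h and 0.94 at 8 h, a difference of -0.92 (standard error 0.13, adjusted p = 0.00153).

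The study names 15 genes for C57BL/6J at 4 h, and 12 had a clone with the symbol. Cacna1a, the gene of that channel subunit, is among the 15 and not among the 12, and the called clone with the similar name is not counted here. Of the 12 genes 7 were called, Ogfrl1, Bag4, Ubl3, Dpysl2, Ubqln2, Pold1 and Pstk. The study chose these genes on the same arrays, so their calls are not independent evidence. Ambp, a precursor of a protease inhibitor, averaged 0.60 (standard error 0.13, adjusted p = 0.0895) and was above 0 on 9 arrays. Map4k3, a kinase upstream of the JNK pathway, had 2 clones at -0.49 (adjusted p = 0.0679) and -0.35 (adjusted p = 0.208). Ndufa8, of respiratory complex I, averaged 0.34 (adjusted p = 0.18) and Pde1c, a calcium-dependent phosphodiesterase, -0.11 (adjusted p = 0.879). Cadps was the fifth gene that was not called.

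The promoters of the genes called lower by the labelled dyes were read for sites of the factors that act in this axis. These were the cyclic AMP response element TGACGTCA and its shorter form CGTCA, which lies within it. The others were the glucocorticoid response element, in which AGAACA and its reverse complement TGTTCT stand 3 bases apart, and its shorter part AGAACA. RefSeq promoters (build GRCm38.p6, 250 bases before to 50 bases after the start of the gene) matched 35 of the 46 genes called lower by symbol, and both strands were searched. TGACGTCA was in 2 of the 35 (5.7%), against 507 of 27025 promoters (1.9%), and CGTCA in 16 (45.7%, against 5681 of 27025). The full glucocorticoid response element was in 0 of the 35 and in 1 of all promoters, and AGAACA in 2 (5.7%, against 19.0%). The median GC content was 65.0% over the 35 and 52.7% over all promoters, and the motifs differ in GC content too, so the shares were not compared by a test. A match of letters is not a site. The 2 promoters with TGACGTCA are shown because their genes were both called lower, with these letters in capitals, followed by that of Zranb2, which has the smallest adjusted p among the 35 genes and no match. They lie at chr11:79254646-79254945 (minus strand), where the match starts 38 bases before the gene start (-38), at chrX:166238693-166238992 (plus strand), where it starts at -49, and at chr3:157533915-157534214 (plus strand).
Wsb1: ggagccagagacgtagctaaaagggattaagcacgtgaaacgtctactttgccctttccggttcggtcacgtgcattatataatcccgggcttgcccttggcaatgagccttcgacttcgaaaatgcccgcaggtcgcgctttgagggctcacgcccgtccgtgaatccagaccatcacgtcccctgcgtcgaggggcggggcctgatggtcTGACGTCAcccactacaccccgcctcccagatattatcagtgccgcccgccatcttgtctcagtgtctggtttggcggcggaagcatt
Gpm6b: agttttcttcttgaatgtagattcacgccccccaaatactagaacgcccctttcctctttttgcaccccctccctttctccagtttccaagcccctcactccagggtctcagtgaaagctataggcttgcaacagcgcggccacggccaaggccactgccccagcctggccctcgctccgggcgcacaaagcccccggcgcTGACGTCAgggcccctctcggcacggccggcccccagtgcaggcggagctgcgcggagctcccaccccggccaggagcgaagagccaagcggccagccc
Zranb2: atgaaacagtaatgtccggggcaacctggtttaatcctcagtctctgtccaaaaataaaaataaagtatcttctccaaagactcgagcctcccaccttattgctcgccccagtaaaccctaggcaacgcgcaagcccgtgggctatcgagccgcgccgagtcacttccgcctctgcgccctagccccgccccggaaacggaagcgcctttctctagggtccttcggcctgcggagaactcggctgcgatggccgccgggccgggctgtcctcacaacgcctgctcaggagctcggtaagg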

How the data were processed

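PVN RNA pools were hybridised in pairs to spotted cDNA arrays. The authors scanned the slides at fixed gain, quantified spots by fixed circles and deposited each spot's intensity and local background in both dyes, and a table of processed log2 values, for which the authors' normalization is described elsewhere. The scale of that table was not stated and was found from the values. On these 10 arrays its column medians were 5e-04 to 0.0074, and its direction is stressed over basal by the labelled dyes. From the intensities, background was corrected by normexp (offset 50), ratios were normalized by loess within arrays with control spots at weight 0, and limma 3.58.1 (R 4.3.3) was fitted with a dye term, with p-values adjusted by Benjamini-Hochberg over 22824 clones. Summaries and figures used Python 3.11.15, pandas 2.3.3, numpy 2.4.6 and matplotlib 3.10.9. Of the clones 9970 were given a symbol (6718 symbols), and 12854 have none here. The genes, lists and tests were chosen with earlier results of these data known. Planned for naming were up to 10 called clones at either end, among those with a symbol whose sign agreed between orientations. With them were the genes the study names for this comparison or for the axis, and up to 4 called clones of each list. The clones of the axis list and the other clones of these genes were planned too. Some of these are given by their mean alone, and some are not given. Further genes in the text (R3hdm2, Dscc1, Map7d2, Nr4a1, a calcium channel-like clone and listed members that were not called) were chosen after their values were seen. The fit was tested on simulated data.

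Alternatives were other background corrections and normalizations, no dye term, leaving out dim clones, the methods' one-sample t-test, other thresholds, subsets of arrays, the authors' processed values, 1 fit over 50 arrays and a replicate block. The day of the spot files as a random block was added after seeing the data. The arrays of DBA/2J at 8 h and of the basal strain comparison entered the fit over 50 arrays alone.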

Additional observations from a re-analysis of the deposited data

Results flagged for a closer look

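Among the 149 sets of values of 10 arrays that were screened for 1 array standing far from the rest, 11 were flagged, and chance flags about 1 in 20 (7.45 of 149). Replicate 5 stood apart in median Cy3 intensity (239) and in the share of clones above the empty spots (38.2%). Single array values stood apart for a clone of App on replicate 8 (0.83), Fkbp5 on replicate 6 (1.65), a further clone of Gpm6b on replicate 4 (1.88), a further clone of Hook3 on replicate 10 (-2.04), a further clone of Magt1 on replicate 1 (-1.02), a clone of Slc6a15 on replicate 8 (1.02), a further clone of Tmed7 on replicate 1 (2.28), a further clone of Tmem30a on replicate 1 (-2.79) and the called clone of Wsb1 on replicate 2 (-1.5966). Of these, Wsb1 alone belongs to a called clone.

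The tested difference of the 4 h response passed the threshold for 47 of the 62 clones called lower against DBA/2J and for 24 against 8 h, and for 1 of the 4 called higher in each. The called higher clones were Resp18 (difference from DBA/2J) and Pstk (difference from 8 h). It also passed for clones that were not called at 4 h themselves. Between C57BL/6J and DBA/2J these were Cadps (-1.04), a clone of Gnai2, the G protein subunit alpha-i2 (1.30), 2 clones of Map4k3 (-0.68 and -0.60), the glucocorticoid receptor Nr3c1 (-0.68) and further clones of Serbp1 (-0.92), Tmem30a (-1.18), Ubl3 (-1.03) and Wsb1 (-0.72). For Nr3c1 the log2 ratio was -0.12 in C57BL/6J and 0.56 in DBA/2J, and for Gnai2 0.31 and -0.99, by the labelled dyes. With the sign turned, which is the direction of the published folds, these are 0.12 and -0.56 for Nr3c1 and -0.31 and 0.99 for Gnai2. Between 4 h and 8 h they were 2 clones of Adam10, a sheddase of membrane proteins (-1.06 and -1.03), Dpysl2 (-0.92) and Serbp1 (-0.9965). The log2 ratio of both Adam10 clones was 0.17 and 0.18 at 4 h and 1.23 and 1.21 at 8 h by the labelled dyes, which would be below 0 with the sign turned.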

How the results depend on the processing

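No called clone with a symbol changed direction under any alternative run. The runs reused the arrays on which these clones were called, so this largely follows from the choice. The 66 calls became 55 to 69 (50 without a dye term, 85 in the processed values) under other background corrections, normalizations, scaling or the adjusted p alone, 173 with dim clones left out, 125 with 50 arrays in 1 fit, 571 by the fold alone, 122 by fold and Z-score, 445 by the methods' t-test and fold unadjusted and 103 after Benjamini-Hochberg. Either dye orientation alone, and the orientations averaged into 1 array each, gave 0 (2640, 2548 and 1121 clones at an unadjusted p under 0.05). For the dim filter, fewer clones were tested. Single orientations hold fewer arrays. The cause of the other shifts was not tested. The 26 called clones in function lists became 0 with either orientation alone. Without 1 array, the counts were 16 to 42 called and 9 to 16 in lists.

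The difference from 8 h (113) became 277 with dim clones left out, 44 without a dye term, 180 with 50 arrays, 15 with the replicate block and 50 with the day as a random block, and 46 to 61 without 1 replicate number. The difference from DBA/2J (535) became 925 with dim clones left out, 274 without a dye term, 127 with the replicate block, 709 with the day as a random block, 652 with 50 arrays and 635 in the processed values, and 310 to 388 without 1 replicate number. The replicate numbers do not pair the arrays. The correlation of the deviations of arrays with the same number was -0.0044 to 0.0215, and 2 of 20 arrays correlated best with their own number. Dim spots limit the rest, since 25.2% of all clones were above the empty spots in both channels on all 10 arrays.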
